A study of Mus musculus with 3 samples.

Results

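The 9 genes described here, Col17a1, Col7a1, Itgb4, Itga6, Itga3, Lama3, Lamb3, Dst and Plec, encode proteins that fasten the epidermis to the dermis. They were chosen by name, and their rows were read from a table of 19165 genes in 16235 cells of mouse back skin. The skin came from male C57BL/6 mice, with no genetic change or treatment named in the labels, at the embryonic stages E13.5 and E16.5 (days of gestation) and at birth (P0). There was 1 droplet-based 3′ RNA library per stage, made from pooled skin. Skin of both embryonic stages was dissociated with trypsin and P0 skin with collagenase IV, so in P0 against E16.5 the enzyme and the stage cannot be told apart. Cells were placed in classes by marker genes that included none of the 9. Levels are in CPM, the unique molecular identifiers (UMIs, the counted RNA molecules) of a gene per 1000000 UMIs of the class, and they are compared between cells and stages, not between genes.

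Hemidesmosomes are rivets on the lower face of basal keratinocytes. Inside the cell, the plakins plectin (Plec) and dystonin (Dst, whose epithelial form is BPAG1e) bind keratin filaments, and in the membrane they meet the integrin made of Itga6 and Itgb4 and the transmembrane collagen XVII (Col17a1). These receptors hold laminin-332, whose chains include those of Lama3 and Lamb3, and to which the integrin with the Itga3 chain also binds, while collagen VII (Col7a1) forms the anchoring fibrils that reach from the basement membrane into the dermis. Inherited loss of these proteins causes blistering of the skin.

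In the GENCODE annotation of the mouse GRCm38 assembly, Dst occupies chr1:33908225-34308661, Lamb3 chr1:193207699-193343878, Itga6 chr2:71745616-71858416, Col7a1 chr9:108953586-108984875 and Itga3 chr11:95044474-95076801. Itgb4 occupies chr11:115974709-116008412, Plec chr15:76170974-76232574 and Col17a1 chr19:47646344-47692094. Dst has 14 and Plec 21 annotated protein-coding transcripts. The counts are summed by gene, so the epithelial, neural and muscle forms of dystonin and the forms of plectin were counted together.

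The promoter windows of Col17a1, Col7a1 and Lamb3 are shown because these genes had different patterns: Col17a1 was counted mainly in epithelium, Col7a1 in dermis and epithelium, and Lamb3 was higher at birth than at E16.5 in basal-like cells. Each window runs from 250 bases before to 50 bases after a RefSeq start (GRCm38.p6), 5′ to 3′ on the strand of the gene, and capitals mark motif matches. The Col17a1 window (chr19:47691993-47692292, minus strand) holds 2 TATA boxes (TATAAA) and 1 p53 family half-site. The Col7a1 window (chr9:108953336-108953635, plus strand) holds 1 GC box (GGGCGG). The Lamb3 window (chr1:193301744-193302043, plus strand, 1 of 2 overlapping windows of the gene) holds none of the 4 motifs searched.
Col17a1: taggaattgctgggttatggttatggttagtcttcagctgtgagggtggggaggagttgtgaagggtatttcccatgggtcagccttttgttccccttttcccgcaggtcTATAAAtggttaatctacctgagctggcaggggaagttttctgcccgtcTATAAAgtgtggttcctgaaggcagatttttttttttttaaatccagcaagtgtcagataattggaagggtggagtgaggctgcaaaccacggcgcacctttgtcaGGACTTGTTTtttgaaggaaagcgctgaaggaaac
Col7a1: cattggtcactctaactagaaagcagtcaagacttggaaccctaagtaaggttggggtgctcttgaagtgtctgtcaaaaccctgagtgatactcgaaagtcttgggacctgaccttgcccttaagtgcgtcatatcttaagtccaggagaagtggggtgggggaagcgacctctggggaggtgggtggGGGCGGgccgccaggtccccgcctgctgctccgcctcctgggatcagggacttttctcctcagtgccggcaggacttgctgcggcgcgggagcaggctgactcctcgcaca
Lamb3: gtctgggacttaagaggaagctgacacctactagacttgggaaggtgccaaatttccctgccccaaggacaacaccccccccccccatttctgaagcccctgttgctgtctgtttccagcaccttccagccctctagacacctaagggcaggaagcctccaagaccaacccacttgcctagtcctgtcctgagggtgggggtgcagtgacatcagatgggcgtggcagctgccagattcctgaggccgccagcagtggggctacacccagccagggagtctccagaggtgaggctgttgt

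Both strands were searched. Among all 32851 RefSeq windows of this length, 13.6% held a TATA box, 35.7% a GC box, 8.36% a p53 family half-site and 7.81% an AP-1 site (TGANTCA). A match describes letters of the window, and no binding was measured.

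The libraries held 53334740 UMIs in 5962 cells at E13.5, 66239195 in 5208 cells at E16.5 and 46599806 in 5065 cells at P0, and each pair of libraries shared 32 to 44 cell barcodes. Epithelial-like cells, in which 10 of 10 epithelial markers such as Krt14, Krt5 and Trp63 were detected, numbered 194, 879 and 1473. A further 337, 76 and 117 cells of epithelial sub-clusters carried dermal markers at 25% or more of the dermal-like level and were left out, and a doublet caller marked 44 of those of E16.5 and 61 of those of P0. In the epithelial-like cells kept, 9 of 9 dermal markers were still detected, at a summed level of 777, 2243 and 1286 CPM against 9532, 29284 and 45895 in dermal-like cells, and their part in the values of Col7a1 and Plec was not tested. With 1 library per stage there is no replicate error, so no test was made, and all intervals in brackets are 95% exact intervals for counting error only.

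Epithelial-like cells held more of 7 of the 9 genes than all non-epithelial cells together, at E16.5 as well as at P0. A gene was counted as higher where the ratio of its levels was at least 2, its interval left out 1, and both groups together held 50 UMIs. All 9 genes met the UMI minimum at the later stages, and Col17a1, Itgb4, Itga6, Itga3, Lama3, Lamb3 and Dst were higher at each, beside 9.34% of 13575 genes at E16.5 and 11% of 12890 genes at P0. Col7a1 and Plec were not. At E13.5, 5 genes met the minimum, Itgb4 was higher (beside 8.58% of 13576 genes) and Col7a1 was lower (beside 19.6%). The median log2 ratio of the genes compared was -0.16, 3.44 and 2.41 at the 3 stages, beside -0.05, -0.16 and -0.01 over all genes compared.

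Among the receptors, Col17a1 in epithelial-like cells of E13.5, E16.5 and P0 reached 5.92, 199.9 and 126 CPM, and it stood at 0.574, 8.86 and 10.8 in non-epithelial cells. Its ratio was 22.6 (20.4 to 25) at E16.5, the highest of the 9 genes at that stage, and 11.7 (10.3 to 13.3) at P0. Itgb4, the chain that makes an integrin a hemidesmosome receptor, stood at 15.5, 72.1 and 46.5 in epithelial-like cells and at 1.48, 6.63 and 8.73 in the others. Itgb4 was the only one of the 5 genes compared at E13.5 that was higher in epithelial-like cells at every stage, with ratios of 10.5 (6.76 to 16.0), 10.9 (9.60 to 12.3) and 5.32 (4.59 to 6.18).

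Itga6, the partner of Itgb4, was less restricted. Its levels were 27.3, 141 and 108 CPM in epithelial-like cells and 36.7, 69.8 and 40.0 in other cells. The ratio was 0.745 (0.566 to 0.964) at E13.5, 2.02 (1.91 to 2.14) at E16.5 and 2.69 (2.50 to 2.91) at P0. The E16.5 ratio fell under 2-fold after 10 CPM were added to both groups (log2 0.92), and the P0 ratio did so among cells with at least 2500 genes (log2 0.74). Keeping only those cells or keeping the mixed sub-clusters brought the E16.5 ratio to log2 0.99 and 0.98. Itga3, whose integrin binds laminin outside hemidesmosomes as well, stood at 8.65, 31.8 and 27.4 in epithelial-like cells, with ratios of 16.4 (13.2 to 20.6) at E16.5 and 5.96 (4.88 to 7.34) at P0.

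The laminin-332 chains followed the epithelium. Lama3 (chr18:12333819-12583013) stood at 1.82, 31.5 and 31.0 CPM and Lamb3 at 2.73, 58.8 and 111 in epithelial-like cells. Ratios over other cells were 18.9 (14.9 to 24.1) and 22.2 (18.5 to 26.9) at E16.5 and 11.8 (9.17 to 15.4) and 13.4 (11.6 to 15.5) at P0. At E13.5 only 4 UMIs of Lama3 and 6 of Lamb3 were counted in epithelial-like cells, under the minimum.

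The plakins differed from each other. Dst stood at 31.4, 234 and 269.5 CPM in epithelial-like cells, with ratios over other cells of 0.893 (0.691 to 1.14), 4.54 (4.31 to 4.78) and 4.70 (4.44 to 4.99). Plec stood at 49.6, 95.7 and 73.3 there and at 29.9, 60.4 and 78.1 in other cells, and its ratios of 1.66 (1.35 to 2.02), 1.58 (1.48 to 1.69) and 0.938 (0.876 to 1.01) were under 2-fold at every stage. Plectin links filaments in many cell types.

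Among the named classes Col7a1 was highest in dermal-like cells, and at E16.5 and P0 epithelial-like cells came next. It stood at 3.19, 91.6 and 61.4 CPM in epithelial-like cells and at 16.0, 124 and 165 in dermal-like cells, which carry fibroblast genes such as Col1a1 and Lum. Dermal-like cells held the highest level of any named class at each stage, and their intervals did not overlap those of the next named class. The 417 unnamed cells of E16.5 outside the epithelium, which scored highest for the dermal list, stood at 133 CPM. At E16.5 the epithelial-like interval (86.6 to 96.8) overlapped that of the 32 erythroid-like cells, at 70.1 (50.1 to 95.5) on 40 UMIs. Among non-epithelial cells the dermal-like ones stood 2.89 (2.38 to 3.52), 2.61 (2.42 to 2.81) and 2.91 (2.66 to 3.18) times above the rest, and no other gene of the set was higher in them at any stage (backgrounds 3.28%, 6.62% and 5.59%). The rest included those unnamed cells of E16.5 and clusters left unnamed at P0 that scored highest for the dermal list. The ratio of epithelial-like over all non-epithelial cells was 0.934 (0.877 to 0.994) at E16.5 and 0.517 (0.483 to 0.553) at P0, and at P0 it passed as lower with the same weight for each cell (log2 -1.21) and without the sub-clusters rich in globin RNA (log2 -1.11). The E13.5 ratio of 0.312 (0.125 to 0.648) rested on 7 UMIs, and it no longer passed when 10 CPM were added (log2 -0.62), the mixed sub-clusters were kept (log2 -0.51) or cells were named one by one (log2 -0.73).

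**Figure D1:**
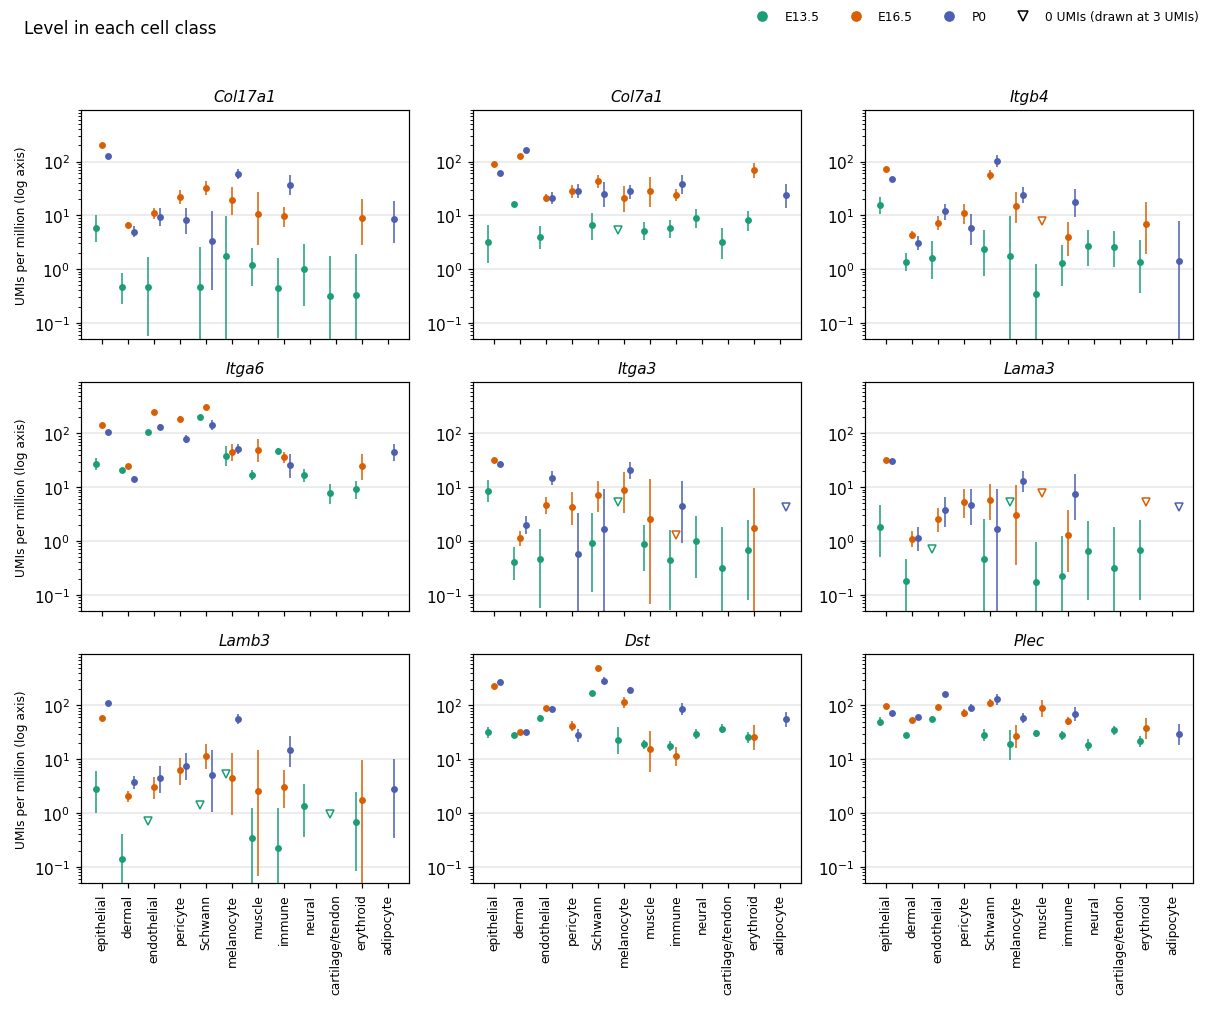
Level of each gene (CPM, log axis cut at 0.05) in each cell class, coloured by stage, with 95% counting intervals as bars and open triangles for classes with 0 UMIs. Col17a1, Itga3, Lama3 and Lamb3 sit highest in epithelial-like cells at every stage, Col7a1 in dermal-like cells, and Itga6 and Dst in Schwann-like cells. At E13.5 the epithelial-like intervals of Col17a1, Lama3 and Lamb3 overlap those of the next class, as does that of Itga3 at P0.

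Within the epithelium, sub-clusters were named by further markers that also left out the 9 genes. Basal-like cells numbered 462 at E16.5 and 146 at P0 and suprabasal-like cells 49, 86 and 125 at the 3 stages. Among the basal-like sub-clusters of E16.5, those of 172, 113, 97 and 40 cells were led by genes of cell division or DNA replication. Examples were Cenpf, Mcm6, Hist1h2ap and Ccnb2. A further sub-cluster, also of 40 cells, was not led by such genes, nor were those of P0 (125 and 21 cells). The part of the cell cycle in comparisons with basal-like cells was not tested. Sub-clusters with more markers of another class than of their own among their 10 leading genes were left unnamed, among them 141 cells at E16.5 and 192 at P0 that scored highest for the basal list but were led by globin genes. The E16.5 suprabasal-like cells were led by genes of both the suprabasal layers and the periderm, such as Krt1, Krt10, Cnfn, Krt4 and Krt6a. They were 1 sub-cluster with 7331 CPM of globin RNA, against 5740 in the unnamed cells led by globin genes at E16.5, and without it the E16.5 comparisons with suprabasal-like cells had no value, so the part of globin-rich cells in them was not tested.

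At E16.5, 7 of the 9 genes were higher in basal-like than in suprabasal-like cells, beside 6.05% of 9348 genes, and at P0 6 of the 9 were, beside 11.2% of 6474 genes. Itga3 had the largest ratio at both stages. It stood at 38.0 against 7.48 CPM at E16.5 (ratio 5.07, 2.79 to 10.3) and at 42.3 against 6.55 at P0 (ratio 6.46, 3.44 to 13.4), on 11 and 11 suprabasal UMIs.

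The hemidesmosome receptors were lower in suprabasal-like cells. Col17a1 stood at 243 CPM in basal-like and 73.5 in suprabasal-like cells at E16.5 (ratio 3.30, 2.72 to 4.05), and at 289 and 101 at P0 (ratio 2.85, 2.40 to 3.40). Itgb4 stood at 84.6 and 37.4 at E16.5 (ratio 2.26, 1.71 to 3.04) and at 87.0 and 20.8 at P0 (ratio 4.18, 2.90 to 6.18). Itga6 stood at 164 and 59.9 at E16.5 (ratio 2.75, 2.21 to 3.45) and at 230.2 and 109.5 at P0 (ratio 2.10, 1.77 to 2.50), and with the same weight for each cell the P0 ratio of Itga6 fell under 2-fold (log2 0.77). Krt14, a basal keratin that was among the naming markers, stood at 5405 and 3525 at E16.5 and at 10242 and 6192 at P0. How much basal RNA was carried into suprabasal-like cells was not tested.

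The laminin chains were ordered in the same way. Lamb3 stood at 65.6 CPM in basal-like and 21.8 in suprabasal-like cells at E16.5 (ratio 3.01, 2.10 to 4.45) and at 149 and 45.2 at P0 (ratio 3.29, 2.55 to 4.29). Lama3 stood at 34.8 and 16.3 (ratio 2.13, 1.40 to 3.38) and at 50.4 and 24.4 (ratio 2.07, 1.43 to 3.04). Under other settings the Lama3 ratio fell under 2-fold at both stages, to log2 0.85 at E16.5 and 0.94 at P0 with the same weight for each cell and to 0.58 at P0 with finer clusters, and that of Itgb4 at E16.5 reached log2 0.98. Dst was higher at E16.5 (258 and 107, ratio 2.41, 2.05 to 2.86) and under 2-fold at P0 (408 and 227, ratio 1.80, 1.59 to 2.04). Col7a1 was under 2-fold at both stages, with ratios of 1.71 (1.37 to 2.16) and 1.63 (1.29 to 2.05), and Plec had ratios of 0.812 (0.688 to 0.963) and 1.27 (1.03 to 1.55).

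At E13.5 no sub-cluster could be named basal-like. A sub-cluster of 49 cells was nearest to the basal list but was led by Dkk4 and Lef1, markers of the hair placode, and its values are given without a comparison. It held 10 of the 13 Col17a1 UMIs of epithelial-like cells, 18 of 19 Itga3 UMIs, 43 of 69 Dst UMIs, 35 of 60 Itga6 UMIs and 5 of 6 Lamb3 UMIs, but 0 of the 7 Col7a1 UMIs. The 59 periderm-like cells, from the flat outer layer of embryonic skin, held 0 UMIs of Col17a1, Lama3 and Lamb3, which at a floor of 3 UMIs allows up to 3.81 CPM of each, and 49 of the 109 Plec UMIs.

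**Figure D2:**
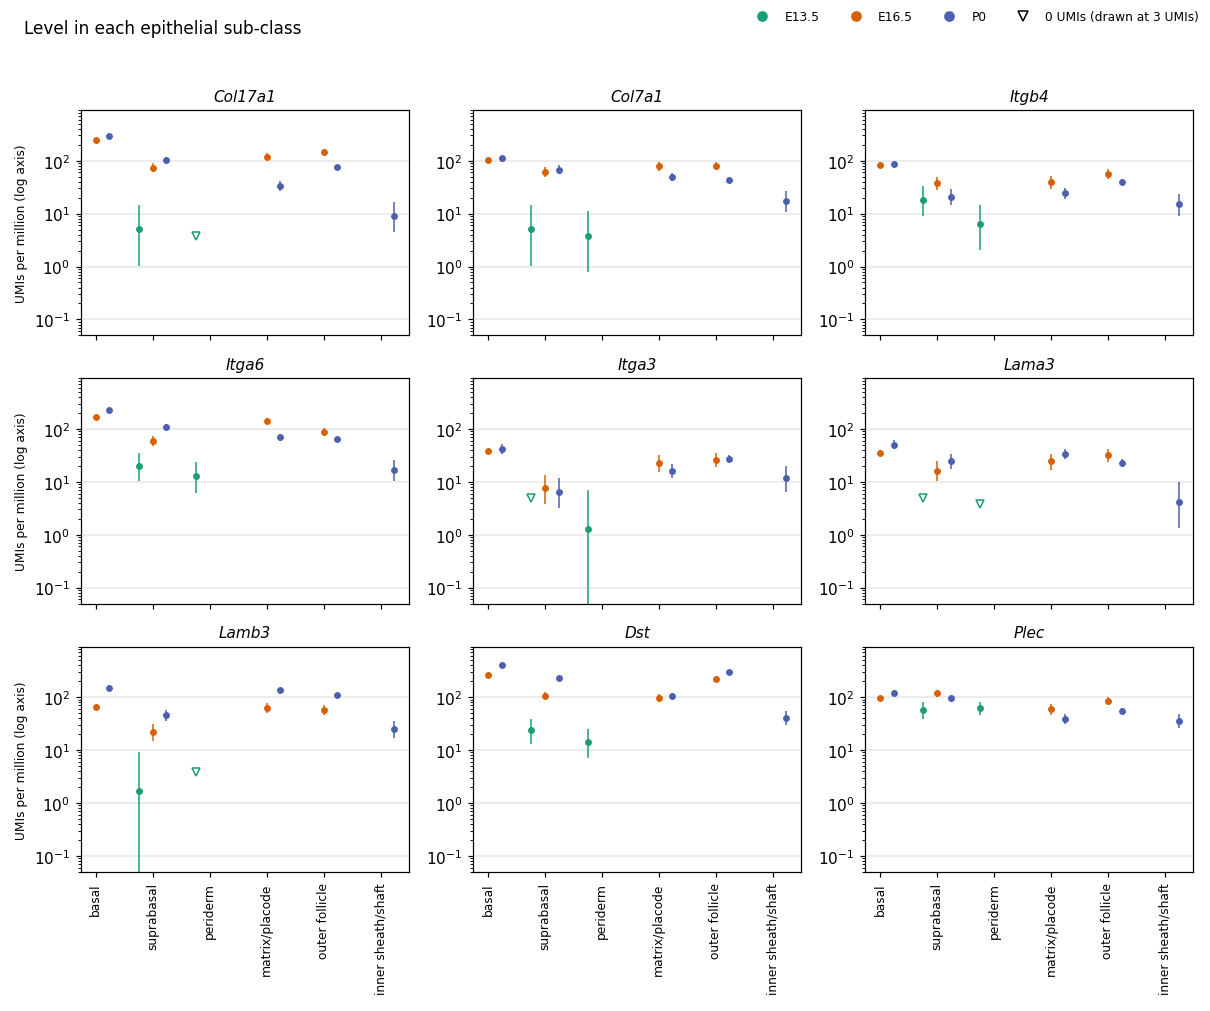
Level of each gene (CPM, log axis cut at 0.05) in named epithelial sub-classes, coloured by stage, with 95% counting intervals as bars and open triangles for 0 UMIs. At P0 Col17a1 stands at 289 in basal-like and 9.19 in inner sheath/shaft-like cells, and Lamb3 at 135 in matrix or placode-like cells.

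Among the follicular groups, from which hair grows, the number of genes lower than in basal-like cells ran from 0 to 9. Matrix or placode-like cells (follicle buds and dividing hair matrix, 103 cells) were lower at E16.5 for 3 of the 9 genes, beside 4.09% of 9160 genes. These were Col17a1 (119.9 CPM, ratio 0.494, 0.418 to 0.581), Itgb4 (39.2, ratio 0.463, 0.343 to 0.614) and Dst (97.7, ratio 0.379, 0.315 to 0.452). With the set and related genes kept among the genes used for clustering, Col17a1 and Itgb4 no longer passed (log2 -0.65 and -0.61), nor did they with finer clusters (log2 -0.93 and -0.80).

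At P0, 7 of the 9 genes were lower in 231 matrix or placode-like cells, beside 6.64% of 7331 genes. Col17a1 had the lowest ratio, at 33.4 against 289 CPM (ratio 0.116, 0.0914 to 0.145), followed by Dst at 104 against 408 (ratio 0.256, 0.222 to 0.293) and Itgb4 at 24.3 against 87.0 (ratio 0.279, 0.207 to 0.373). The laminin chains were the genes that did not pass. Lamb3 stood at 135 in these cells and 149 in basal-like cells (ratio 0.910, 0.780 to 1.06) and Lama3 at 33.4 and 50.4 (ratio 0.662, 0.494 to 0.887). With finer clusters both chains were lower as well, Lamb3 at log2 -1.08 and Lama3 at -1.58. With coarser clusters Col7a1 no longer passed (log2 -0.97), nor did Itga3 with 10 CPM added (log2 -0.99).

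Outer follicle-like cells carry genes of the outer root sheath. Of the 9 genes, 0 were lower in them at E16.5 (87 cells, beside 2.25% of 9337 genes) and 6 at P0 (538 cells, beside 5% of 8866 genes). The P0 genes were Col17a1 (76.8 CPM, ratio 0.266, 0.236 to 0.30), Itga6 (63.2, ratio 0.275, 0.24 to 0.314), Col7a1 (42.6, ratio 0.386, 0.323 to 0.462), Lama3 (22.8, ratio 0.452, 0.350 to 0.587), Itgb4 (39.8, ratio 0.457, 0.376 to 0.556) and Plec (55.7, ratio 0.465, 0.395 to 0.549). Dst stayed at 296, a ratio of 0.724 (0.668 to 0.786). After 10 CPM were added, 3 of the 9 genes were lower, since Itgb4 (log2 -0.96), Lama3 (log2 -0.88) and Plec (log2 -0.98) no longer passed.

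The inner root sheath and hair shaft-like cells of P0 (112 cells), which have left the basement membrane, were lower for 9 of the 9 genes, beside 11.1% of 6104 genes. Ratios ran from 0.0318 (0.0158 to 0.0574) for Col17a1, at 9.19 CPM, to 0.30 (0.212 to 0.416) for Plec, at 35.9. Itga6 stood at 16.7, Itgb4 at 15 and Lamb3 at 25.1.

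Sub-clusters of 1 name also differed among themselves. Over the 5 basal-like sub-clusters of E16.5, Col17a1 ranged from 199 to 444 CPM, Itga6 from 145 to 254 and Lamb3 from 50.6 to 109. Over the 5 outer follicle-like sub-clusters of P0, Col17a1 ranged from 34.6 to 147 and Dst from 248 to 400.2. The unnamed cells led by globin genes stood near the basal-like ones, with Col17a1 at 233 at E16.5 and 307 at P0 and Lamb3 at 58.2 and 174.

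In single cells only part of the set was seen. With each cell thinned to 3500 UMIs, the median basal-like cell held 3 of the 9 genes at E16.5 and 3 at P0, the median suprabasal-like cell 1 and 2, and the median inner sheath/shaft-like cell 0. Col17a1 was detected in 54.5% (49.9 to 59.2) of basal-like cells at E16.5 and 55.5% (47.0 to 63.7) at P0, and in 23.3% (14.8 to 33.6) and 24.8% (17.5 to 33.3) of suprabasal-like cells. In dermal-like cells, which should lack it, the shares were 1.95% (1.48 to 2.53) and 1.40% (0.962 to 1.97). Without thinning, the basal-like and dermal-like shares were 93.3% and 6.86% at E16.5 (median depths 15153 and 10842.5 UMIs) and 88.4% and 2.63% at P0 (median depths 10745.5 and 6003 UMIs).

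Lamb3 was detected in 19.3% (15.8 to 23.2) of thinned basal-like cells at E16.5 and 44.5% (36.3 to 53) at P0, against 0.801% (0.509 to 1.20) and 1.10% (0.711 to 1.61) of dermal-like cells. The shares without thinning were 60.2% and 80.1% in basal-like and 2.09% and 2.28% in dermal-like cells. The intervals cover the counting of cells within each library, and the stages were not tested against each other.

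Between E13.5 and E16.5 most of the set was higher in the epithelium. In epithelial-like cells 8 of the 9 genes were at least 2-fold higher at E16.5, beside 7.95% of 10631 genes, and the exception was Plec (ratio 1.93, 1.58 to 2.37), which reached 2-fold with the same weight for each cell (log2 1.06). The largest ratios were those of Col17a1 (ratio 33.8, 19.7 to 63.5), Col7a1 (ratio 28.7, 13.9 to 71.6), Lamb3 (ratio 21.5, 9.84 to 58.8) and Lama3 (ratio 17.3, 6.70 to 63.7), which rested on 13, 7, 6 and 4 UMIs at E13.5. Dst (ratio 7.43, 5.86 to 9.58), Itga6 (ratio 5.17, 4.0 to 6.80), Itgb4 (ratio 4.66, 3.31 to 6.76) and Itga3 (ratio 3.68, 2.33 to 6.17) followed. The median log2 ratio was 2.89 over the 9 genes and -0.24 over all genes compared.

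Basal-like cells made up 462 of 879 epithelial-like cells at E16.5, while at E13.5 none were named, so the part of the make-up of the epithelium was not tested. The suprabasal-like cells were also compared alone. Their E16.5 side was the 1 sub-cluster rich in globin RNA and led also by periderm genes, so a difference in make-up between the sides was not tested. All 6 genes with 50 UMIs there were higher at E16.5, beside 10.6% of 5274 genes. They were Col17a1 (ratio 14.6, 4.88 to 72.1), Col7a1 (ratio 12.1, 3.99 to 59.6), Itgb4 (ratio 2.03, 1.05 to 4.31), Itga6 (ratio 2.98, 1.62 to 5.99), Dst (ratio 4.56, 2.64 to 8.53) and Plec (ratio 2.10, 1.45 to 3.13), and Itga3, Lama3 and Lamb3 were not counted enough to be compared. Col17a1 and Col7a1 stood at 5.02 CPM each in the 49 suprabasal-like cells of E13.5, at the floor of 3 UMIs.

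From E16.5 to P0 the differences were smaller. In epithelial-like cells 0 of the 9 genes passed 2-fold, beside 6.87% higher and 11.5% lower of 11673 genes. Lamb3 came nearest, from 58.8 to 111 CPM (ratio 1.88, 1.74 to 2.05), and passed with the same weight for each cell (log2 1.03). Col17a1 (ratio 0.630, 0.596 to 0.666) and Itgb4 (ratio 0.645, 0.588 to 0.707) had the lowest ratios. Without the sub-clusters rich in globin RNA, Col17a1 was lower at P0 (log2 -1.04).

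In basal-like cells Lamb3 was the only gene past 2-fold, at 149 CPM at P0 against 65.6 at E16.5 (ratio 2.27, 1.96 to 2.62), beside 6.07% higher and 12.4% lower of 9285 genes. Most basal-like cells of E16.5 sat in sub-clusters led by cell-cycle genes and those of P0 did not, and the part of this difference was not tested. Dst went from 258 to 408 (ratio 1.58, 1.46 to 1.72), Lama3 from 34.8 to 50.4 (ratio 1.45, 1.15 to 1.82) and Itga6 from 164 to 230.2 (ratio 1.40, 1.26 to 1.56). Col17a1 was 1.19 (1.08 to 1.31) times its E16.5 level in basal-like cells and 0.630 (0.596 to 0.666) times in all epithelial-like cells, of which 146 of 1473 were basal-like at P0. In suprabasal-like cells Lamb3 (ratio 2.08, 1.36 to 3.25) and Dst (ratio 2.12, 1.76 to 2.57) were higher at P0, of 8 genes compared and beside 5.41% of 6246 genes.

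**Figure D3:**
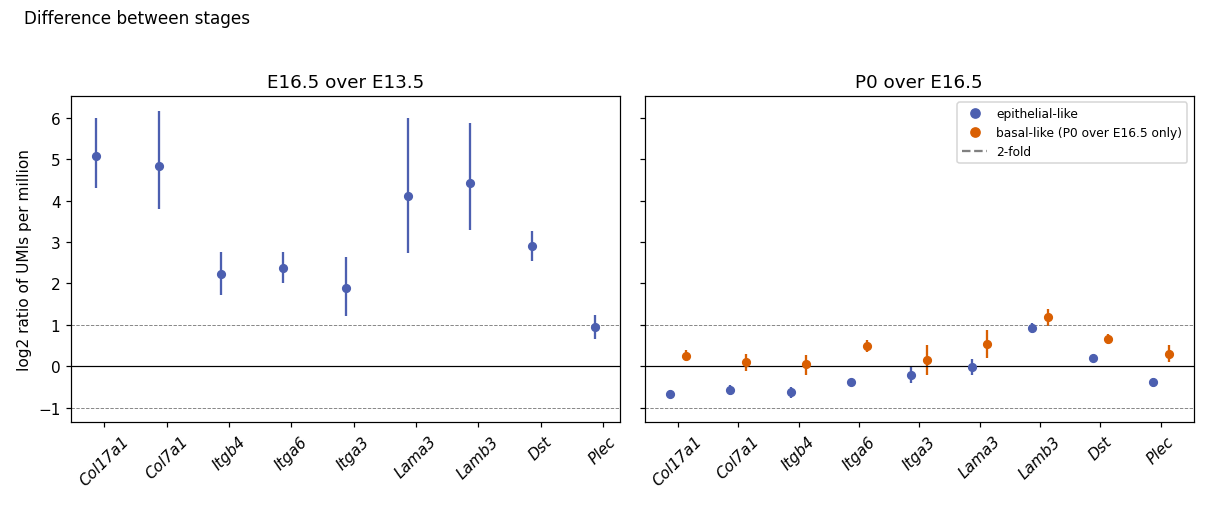
Log2 ratio of CPM between stages for each gene, in epithelial-like (blue) and, for P0 over E16.5, basal-like cells (orange), with 95% counting intervals as bars and dashed lines at 2-fold. The epithelial-like ratios of E16.5 over E13.5 run from 0.95 for Plec to 5.08 for Col17a1, and those of P0 over E16.5 from -0.67 for Col17a1 to 0.91 for Lamb3.

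Outside the epithelium, the level of Krt14 and Krt5 was taken as a measure of epithelial RNA in other cells. Both together reached 3.22% of the epithelial-like level in dermal-like cells at E16.5 and 3.35% at P0. Col17a1, Lama3 and Lamb3 stood there at 3.34%, 3.51% and 3.45% of their epithelial-like levels at E16.5 and at 3.93%, 3.67% and 3.38% at P0. Divided by the keratin share, this gave 1.04 (0.901 to 1.19), 1.09 (0.756 to 1.53) and 1.07 (0.823 to 1.37) at E16.5 and 1.17 (0.919 to 1.48), 1.10 (0.634 to 1.77) and 1.01 (0.761 to 1.32) at P0. All 6 intervals held 1, so these levels at E16.5 and P0 were not told apart from background. At E13.5, where the keratin share was 1.06%, the measure was 7.27 (2.85 to 18.0) for Col17a1, 9.45 (1.76 to 50.8) for Lama3 and 4.73 (0.765 to 22.1) for Lamb3. These rested on 10, 4 and 3 UMIs in dermal-like cells, and the intervals of Col17a1 and Lama3 lay above 1. So did those of Col17a1 in muscle-like cells (12.8, 4.33 to 34.6, on 7 UMIs) and Lama3 in erythroid-like cells (19.1, 1.73 to 133, on 2 UMIs). In the other named non-epithelial classes the intervals of both genes held 1. Epithelial-like cells held 13 and 4 UMIs of Col17a1 and Lama3 at E13.5. In dermal-like cells of E16.5 the same measure was 42.1 (39.6 to 44.9) for Col7a1, 17.1 (15.9 to 18.4) for Plec and 5.45 (5.02 to 5.92) for Itga6. It was 4.20 (3.92 to 4.50) for Dst, 1.85 (1.54 to 2.21) for Itgb4 and 1.11 (0.772 to 1.54) for Itga3.

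The keratin share differed between classes. It was 16.1% in Schwann-like cells at E16.5 and 4.04% at P0, 10.8% and 31.0% in melanocyte-like cells, and 3.90% and 15.2% in immune-like cells. By the 2-fold rule, at least 1 non-epithelial class stood above the other non-epithelial cells for 4 of 5 genes compared at E13.5, for 8 of 9 at E16.5 and for 9 of 9 at P0, beside 35.1%, 40.9% and 43.9% of genes. In P0 melanocyte-like cells 6 genes passed (background 8.85%), Col17a1 at 47.1% and Lamb3 at 50.2% of the epithelial-like level, beside the keratin share of 31.0%. Over the keratin share, Col17a1 was at 1.52 (1.22 to 1.87) and Lamb3 at 1.62 (1.29 to 2.00) there. Their 94 and 88 UMIs lay in 23.6% and 31.1% of the cells without thinning, which the intervals do not cover. The part of epithelial RNA in these levels was not tested further.

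**Figure D4:**
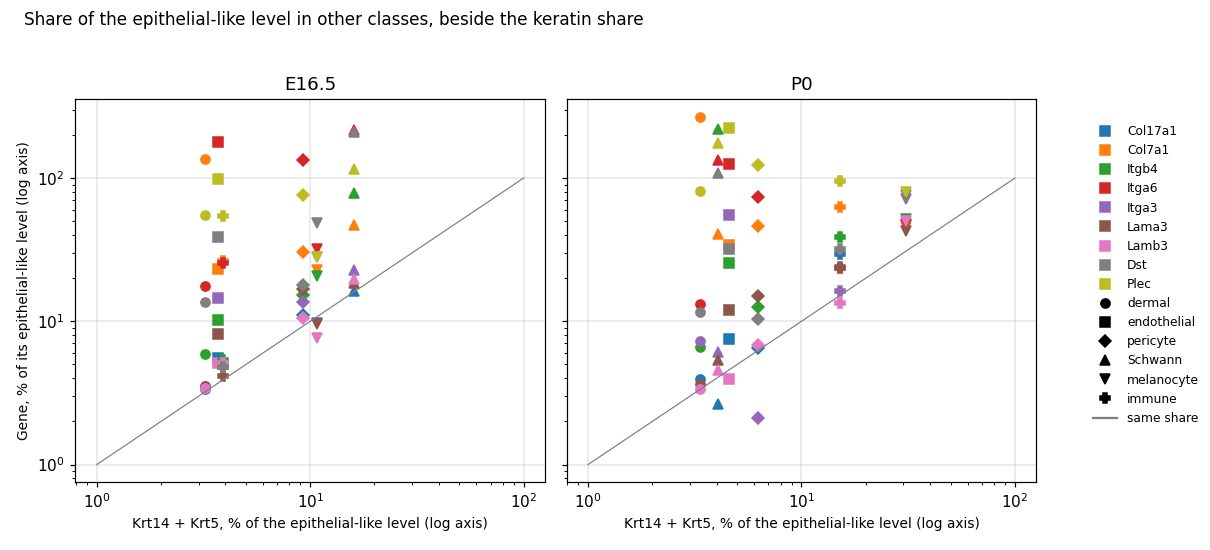
Level of each gene in 6 non-epithelial classes as a percent of its epithelial-like level, against the same percent for Krt14 plus Krt5 (both log axes), at E16.5 and P0, with colour for the gene, symbol for the class and a grey line where both are equal (genes at 0 UMIs are not drawn). Col17a1, Lama3 and Lamb3 lie near the line in dermal-like cells, whereas Itga6 in endothelial-like, Itgb4 and Dst in Schwann-like and Col7a1 in dermal-like cells lie above it.

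Schwann-like cells, the glia that wrap the nerves of the skin, carried the integrin pair and dystonin. Itgb4 stood at 2.32, 56.5 and 102 CPM there at E13.5, E16.5 and P0, and was 10.8 (8.27 to 13.9) and 15.7 (11.5 to 21.2) times above other non-epithelial cells at E16.5 and P0. At P0 this was 220.3% of the epithelial-like level. Over the keratin share, Itgb4 was at 4.89 (3.83 to 6.16) at E16.5 and 54.5 (41.3 to 70.7) at P0. Its E16.5 level was 24.4 (10.0 to 77.2) times that of E13.5, on 5 UMIs at E13.5 and beside 4.84% of 7523 genes. Thinned Schwann-like cells held Itgb4 in 13.8% (7.91 to 21.7) and 29.3% (20.6 to 39.3) of cells, and thinned dermal-like cells in 1.39% (0.998 to 1.89) and 1.05% (0.675 to 1.56).

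Itga6 stood at 203, 304 and 144 CPM in Schwann-like cells, the highest class level at each stage, and at P0 its interval overlapped that of endothelial-like cells. Dst stood at 167, 488 and 290.2 there, again the highest class level at each stage, with an interval that overlapped that of epithelial-like cells at P0. The neural form of dystonin is a product of the same gene. Ratios over other non-epithelial cells were 7.02, 4.81 and 3.84 for Itga6 and 5.76, 12.4 and 5.60 for Dst (backgrounds 4.19%, 9.3% and 8.78%). Itga6 was lower in Schwann-like cells at P0 than at E16.5 (ratio 0.474, 0.371 to 0.599, background 9.32%). Col17a1, Itga3, Lama3 and Lamb3 also passed in Schwann-like cells at E16.5, but over the keratin share they were at 1.02 (0.739 to 1.36), 1.42 (0.676 to 2.63), 1.15 (0.493 to 2.28) and 1.23 (0.699 to 2.01).

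In vessels Itga6 stood out. It was at 107, 251 and 135 CPM in endothelial-like cells, with ratios over other non-epithelial cells of 3.60, 5.88 and 4.84 (backgrounds 5.66%, 10.3% and 10.7%), and at 189 and 80.0 in the pericyte-like cells of E16.5 and P0. Itgb4 stood at 1.64, 7.35 and 11.8 in endothelial-like cells, beside a keratin share of 3.69% at E16.5 and 4.59% at P0. Over that share Itgb4 was at 2.76 (2.03 to 3.68) and 5.54 (3.83 to 7.76). Plec stood at 55.6, 94.4 and 163, and at P0 this was its highest class level, with an interval that overlapped that of Schwann-like cells. Itga3 stood at 4.65 and 15.2 at E16.5 and P0, which over the keratin share was 3.96 (2.66 to 5.70) and 12.1 (8.69 to 16.4).

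Col7a1 varied among dermal-like clusters. At E16.5 it ranged from 35.8 to 259 CPM over 9 clusters. The highest was led by Bmp4, Bmp3, Foxd1 and Sox2, which include genes of the dermal papilla, and the lowest by Mfap5 and Clec3b. At P0 it ranged from 28.0 to 258 over 8 clusters, the highest led by Entpd2, Wisp1 and Dclk1 and the lowest by Mfap5, Igfbp6 and Clec3b. These clusters were singled out after their values were seen. Over all dermal-like cells 4 of 7 genes compared were higher at E16.5 than at E13.5, beside 6.52% of 12916 genes. Among them, Col7a1 had a ratio of 7.78 (6.97 to 8.70) and one of 1.32 (1.26 to 1.39) at P0 over E16.5. Col17a1, Itgb4 and Lamb3 also passed, at ratios of 14.6 (7.78 to 30.8), 3.12 (2.10 to 4.80) and 14.8 (4.84 to 73.3), while the keratin share of dermal-like cells was 1.06% at E13.5 and 3.22% at E16.5.

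The remaining classes were read in the same way. At E13.5, none of the 5 genes compared was higher in melanocyte-like, muscle-like, immune-like, neural-like, erythroid-like or cartilage or tendon-like cells than in other non-epithelial cells (backgrounds 2.68%, 3.25%, 7.34%, 9.8%, 0.462% and 6.28%), and at E16.5 none of 9 was in muscle-like, immune-like or erythroid-like cells (backgrounds 4.1%, 11.9% and 0.504%). In P0 immune-like cells (66 cells, background 9.1%) Col17a1 (37.3 CPM, ratio 3.71, 2.35 to 5.60) and Itgb4 (17.9 CPM, ratio 2.11, 1.07 to 3.77) were higher, beside the keratin share of 15.2%, over which they were at 1.95 (1.26 to 2.89) and 2.54 (1.31 to 4.46). Their 25 and 12 UMIs lay in 10.6% and 9.09% of these cells without thinning, and the intervals do not cover such clumping. In the 45 adipocyte-like cells of P0, 0 of 9 genes were higher (background 8.4%). Plec, which also anchors the filaments of muscle, stood at 30.2 (25.9 to 35.1) and 88.7 (61.4 to 124) CPM in muscle-like cells of E13.5 and E16.5. They ranked number 4 among the classes at each stage. Dermal-like cells stood at 27.8 (25.6 to 30.1) and 52.8 (50.4 to 55.3). In pericyte-like cells 5 genes passed at E16.5 (background 6.12%) and Itga6 alone at P0 (background 6.98%), beside keratin shares of 9.24% and 6.26%. Over the keratin share the 5 genes of E16.5 were at 14.5 (13.0 to 16.2) for Itga6, 1.19 (0.872 to 1.60) for Col17a1, 1.47 (0.667 to 2.81) for Itga3, 1.81 (0.899 to 3.28) for Lama3 and 1.15 (0.608 to 1.97) for Lamb3, and the last 4 intervals held 1. In melanocyte-like cells of E16.5, Col17a1, Itgb4, Itga3 and Dst passed (background 6.38%). Over the keratin share Col17a1 was at 0.901 (0.479 to 1.54), Itgb4 at 1.92 (0.919 to 3.55) and Itga3 at 2.61 (0.954 to 5.74) there, and these intervals held 1. Dst in melanocyte-like cells was at 23.0, 114 and 194, which over the keratin share was 4.51 (3.54 to 5.66) at E16.5 and 2.32 (2.06 to 2.61) at P0.

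The levels of several genes followed each other across classes and stages. Over the 24 class and stage groups with at least 50 cells, Pearson's r of log2(CPM + 10) was 0.97 between Lama3 and Lamb3, 0.97 between Col17a1 and Lama3 and 0.94 between Col17a1 and Lamb3. It was 0.83 between Itgb4 and Dst, 0.53 between Itgb4 and its partner Itga6, and lowest, at 0.16, between Col7a1 and Itga6. Groups of 1 stage share a library, its depth and its free RNA, so these values are descriptions.

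Among the genes most like Lamb3 were Urah (0.99) and Anxa8 (0.98). Lama3 was most like Trp73 (0.97) and Anxa8 (0.97), and Col17a1 like Lmo1 (0.97). Col7a1 was most like Ptch1 (0.85), Hs3st6 (0.85) and Gli1 (0.85). Itgb4 was most like Art4 (0.92), Itga6 like Iffo2 (0.86), Itga3 like Dlk2 (0.91), Dst like Erf (0.86) and Plec like Plp2 (0.87).

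A list of 38 related genes of basement membrane and adhesion was read in the same way. In epithelial-like against other cells, 8 of 32 genes compared were higher at E13.5, 11 of 33 at E16.5 and 12 of 33 at P0, beside backgrounds of 8.58%, 9.34% and 11%. Lower were 12, 14 and 16, beside backgrounds of 19.6%, 24.4% and 22.3%. Lad1, Lama5, Col4a6, Fras1, Frem2 and Fermt1 were higher at each stage. At E16.5 the ratio was 19.7 (16.7 to 23.4) for Lad1, which encodes the anchoring filament protein ladinin, and 27.8 (23.3 to 33.4) for Fermt1, whose product kindlin-1 activates integrins. Fras1 (ratio 17.9, 16.0 to 20.04) and Frem2 (ratio 17.5, 14.6 to 21.1) encode proteins of the Fraser complex beneath embryonic epidermis. Frem1, of the same complex, went the other way and was lower in epithelial-like cells at each stage (ratio 0.250, 0.206 to 0.301, at E16.5).

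Genes of the core of the basement membrane went both ways. Col4a1, a main collagen IV chain, stood at 58.7 CPM in epithelial-like and 324 in other cells at E16.5 (ratio 0.181, 0.168 to 0.194), and Nid1, a linker of laminin and collagen IV, at 10.3 and 106 (ratio 0.0970, 0.0815 to 0.115). Col4a1, Col4a2, Nid1, Nid2 and Col15a1, and the laminin chains Lama2 and Lama4, were lower in epithelial-like cells at each stage. In the core group Col4a6 had the largest ratio at E16.5 (ratio 12.4, 8.99 to 17.5). Col4a5 (ratio 5.17, 4.42 to 6.06) and Agrn (ratio 3.75, 3.47 to 4.05) were also higher in epithelial-like cells at E16.5. Col18a1 had ratios of 4.23 (3.77 to 4.73) at E13.5, 1.01 (0.940 to 1.08) at E16.5 and 0.473 (0.432 to 0.518) at P0. Bmp1, a protease that processes procollagen VII and laminin-332, stood at 17.7 and 47.7 at E16.5 (ratio 0.371, 0.323 to 0.423). Between basal-like and suprabasal-like cells, 7 of 26 list genes were higher at E16.5 (background 6.05%) and 9 of 20 at P0 (background 11.2%), among them Itgb1 and Cd151, a tetraspanin that binds laminin integrins, at both.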

How the data were processed

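The deposited table was prepared by the authors with Cell Ranger 2.2.0 and Seurat on the mm10 genome and keeps cells with at least 1750 genes and genes found in at least 3 cells. It holds more cells at each stage than the study says it kept, most of all at E13.5. The cells that the authors dropped could not be matched, so all were used. Its values are natural log units, ln(1 + UMIs per 10000 UMIs of the cell), as the deposited table shows. Each of the 48197283 non-zero entries came out as a whole number of UMIs (tolerance 0.001), and these UMIs were used. How the authors' cell filter acted on classes of low RNA content was not tested.

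Each library was clustered on its own (scanpy 1.11.5, Leiden with leidenalg 0.10.2, 2000 variable genes without the 9 genes and the related list, 30 principal components, 15 neighbours, resolution 1). Clusters were named by listed markers over the 25th percentile of the clusters, epithelial cells were clustered again, and sub-clusters were named over the lowest sub-cluster. Names needed 3 markers and no more markers of another class than of their own among 10 leading genes. Epithelial sub-clusters led by Krt79, Cidea, Dner or Gpm6b and dermal clusters led by Lyve1 or Mmrn1 were left unnamed. These naming rules and the 25% limit for mixed sub-clusters were chosen after the clusters were seen, and names may differ from the authors' own, since no cell labels were used. Unnamed clusters outside the epithelium count as non-epithelial cells. Scrublet marked 0 cells at E13.5, where it did not work, 84 at E16.5 and 106 at P0, and marked cells were kept.

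UMIs were summed over groups of at least 30 cells, and ratios have exact Clopper-Pearson intervals (scipy 1.17.1). Shares of cells with a UMI were computed after thinning each cell to 3500 UMIs. The ratio step was run on simulated counts, drawn independently with known folds. These held no clumping between cells, no difference between libraries and no free RNA, so the run does not bear on those. Background shares are the percent of all genes with 50 UMIs that passed the same rule. Genes named from the related list were those with the largest ratio in their group, with Cd151, and other names were chosen after their values were seen. 1 gene that this rule names is not reported here. Erbin was matched as Erbb2ip. The members and lists were chosen with earlier results of these data known.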

Additional observations from a re-analysis of the deposited data

Results flagged for a closer look

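Itga3 in pericyte-like cells, the wall cells of small vessels, differed between stages relative to other non-epithelial cells. At E16.5 it stood at 4.32 CPM there and 1.84 in other non-epithelial cells, a log2 ratio of 1.23. At P0 it stood at 0.584 and 4.88, a log2 ratio of -3.06. It was higher than the comparison cells at 1 stage and lower at the other, on 9 and 1 UMIs in pericyte-like cells, so the P0 ratio was 0.120 (0.00300 to 0.679). The keratin share of these cells was 9.24% at E16.5 and 6.26% at P0, and endothelial-like cells, which are among the comparison cells, went from 4.65 to 15.2 CPM. The pericyte-like levels themselves had overlapping intervals (1.97 to 8.19 at E16.5 and 0.0148 to 3.25 at P0). Over the keratin share they were at 1.47 (0.667 to 2.81) and 0.340 (0.00859 to 1.90), and both intervals held 1. The difference was not tested.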

How the results depend on the processing

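The settings changed one at a time were the clustering resolution, the number of variable genes, keeping the 9 genes and the related list among them, the reference for naming, a minimum of 2500 genes per cell, leaving out doublets, the same weight for each cell, 10 CPM added to both groups, and naming cells one by one. Keeping mixed sub-clusters, leaving out sub-clusters with over 5000 CPM of globin, and naming sub-clusters led by markers of another class all the same were chosen after seeing the data. Of the counts of genes past the rule, 212 stayed within 1.5 times the reported count, 12 did not, and no ratio that passed changed sign.

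The 3 genes lower in matrix or placode-like cells at E16.5 became 1 with resolution 2, 1 with the 9 genes and the list among the variable genes and 1 with 10 CPM added. With the same weight for each cell, the genes lower in outer follicle-like cells at E16.5 went from 0 to 1, and those higher in epithelial-like cells at P0 than at E16.5 from 0 to 1. With 10 CPM added, the genes higher in a non-epithelial class went from 4 to 2 at E13.5 and from 8 to 5 at E16.5, the list genes higher in epithelial-like cells at P0 from 12 to 7, and the genes lower in outer follicle-like cells at P0 from 6 to 3. The 1 gene higher in epithelial-like cells at E13.5 became 2 with cells named one by one and 2 with mixed sub-clusters kept. Without globin-rich sub-clusters, the genes lower in epithelial-like cells at P0 than at E16.5 went from 0 to 1. Adding a constant draws ratios of low levels towards 1 by construction, and for the other settings the cause was not tested.

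Counting a ratio once for each setting, ratios that had passed fell under 2-fold 35 times and ratios that had not passed reached it 11 times. Some ratios were counted under several settings. Cells named one by one and mixed sub-clusters kept gave no sub-class values and none for classes outside the epithelium. Resolution 2 and leaving out globin-rich sub-clusters gave no basal over suprabasal values at E16.5, and naming against the median gave no sub-class values at E16.5. No paired analysis was possible because each stage has 1 library and the labels carry no replicate numbers. At E13.5, with 194 epithelial-like cells, 4 of the 9 genes lacked the 50 UMIs the rule needs.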
